A study of Mus musculus with 6 samples.

Results

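The AP-1 transcription factor family was followed on 6 one-colour microarrays of a mouse glioblastoma stem cell line in which Ggct had been silenced. The family comprised 10 genes, Jun, Junb, Jund, Fos, Fosb, Fosl1, Fosl2, Jdp2, Atf3 and Batf3, taken as every non-control probe whose RefSeq accession maps to one of these symbols. They were read by 14 of the 56593 probes analysed, and 12 of the 14 passed the filter on dim probes, which kept those flagged well above background on 3 or more of the 6 arrays. All 10 genes had such a probe, so all 10 were among the 14151 genes tested. The control group was 3 arrays of cells given a lentiviral non-target hairpin, and the knockdown group was 3 arrays of cells given a lentiviral hairpin against Ggct, which encodes gamma-glutamylcyclotransferase. Both groups were stably transduced derivatives of 1 mouse line, grown from tumours that a Sleeping Beauty transposon had induced in brain and kept as neurospheres without serum, with EGF and bFGF at 10 ng/ml each. All 3 knockdown titles name the same hairpin, number 3, and whether the arrays of a group came from separate transductions is not given, so the tests rest on array-to-array spread alone, which may be technical. Each control array shared its date with 1 knockdown array, which gave 3 date pairs.

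AP-1 is a set of dimers of basic leucine zipper (bZIP) proteins. A Jun protein pairs with another Jun protein, a Fos protein or an ATF-like partner, and the dimer binds short palindromic DNA sites in promoters and enhancers. Growth factor and stress signals raise AP-1 activity through the ERK, JNK and p38 kinases, partly by transcription of Fos and Jun themselves and partly by phosphorylation of the proteins, which an mRNA array does not see. The family is known for roles in proliferation, invasion and mesenchymal traits of glioma cells. The title of the series places c-Jun, the product of Jun, upstream of Ggct, whereas the arrays ask the reverse, how transcripts differ once Ggct is suppressed.

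Several AP-1 genes are known to be controlled through sites of the AP-1 or CRE type in their own promoters, so the promoters of the family were searched. RefSeq promoters of 300 bases (build GRCm38.p6, 250 before and 50 after a start site) matched 9 of the 10 genes by symbol, with Fosl1 unmatched, and Jdp2 had 3 start sites, which made 11 windows. None of the 11 held the AP-1 site TGANTCA, the full cyclic AMP response element (CRE) TGACGTCA or a CArG box, the site of serum response factor. Over all 32851 promoters of that length, 7.81% held TGANTCA, 1.79% held TGACGTCA and 1.63% held a CArG box, on either strand. The variant TGACATCA, found in 3.62% of all promoters, stood 45 bases before the start of Jun, where a site of this form is known to bind dimers of Jun and ATF proteins. The CRE half-site TGACGT, which also lies inside every TGACGTCA and was found in 7.51% of all promoters, stood in the windows of Fos, Atf3 and 1 of the 3 Jdp2 starts. It began 66, 8 and 114 bases before the respective start. The promoter of Ggct, the gene silenced here, held the same half-site 171 bases before its start. These matches are descriptions of sequence, and no binding was measured. Sites more than 250 bases before a start lay outside the windows, so the search cannot show that a gene lacks them. Other forms of site were not searched, so lower case does not mean that no such site is present. The 250 bases before the start of the 5 genes with a match read as follows, 5′ to 3′, with the matches in capitals. They are shown because they hold every match to the patterns named above in the family and in Ggct.
Jun (chr4:95052223-95052472, reverse strand): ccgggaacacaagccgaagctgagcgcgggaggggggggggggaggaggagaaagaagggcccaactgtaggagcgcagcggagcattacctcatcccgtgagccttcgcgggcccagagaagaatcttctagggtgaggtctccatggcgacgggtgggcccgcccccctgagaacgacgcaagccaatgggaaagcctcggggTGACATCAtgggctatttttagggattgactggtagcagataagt
Fos (chr12:85473640-85473889, forward strand): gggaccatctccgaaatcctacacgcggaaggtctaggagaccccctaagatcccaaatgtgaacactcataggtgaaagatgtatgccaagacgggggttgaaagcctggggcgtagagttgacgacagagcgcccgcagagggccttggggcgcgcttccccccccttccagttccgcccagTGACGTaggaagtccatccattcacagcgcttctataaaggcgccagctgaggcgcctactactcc
Atf3 (chr1:191183334-191183583, reverse strand): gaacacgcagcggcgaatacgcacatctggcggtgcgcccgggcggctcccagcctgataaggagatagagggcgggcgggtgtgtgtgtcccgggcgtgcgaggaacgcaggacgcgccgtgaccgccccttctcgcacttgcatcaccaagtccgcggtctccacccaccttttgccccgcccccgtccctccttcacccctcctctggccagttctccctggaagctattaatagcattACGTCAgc
Jdp2 (chr12:85599166-85599415, forward strand): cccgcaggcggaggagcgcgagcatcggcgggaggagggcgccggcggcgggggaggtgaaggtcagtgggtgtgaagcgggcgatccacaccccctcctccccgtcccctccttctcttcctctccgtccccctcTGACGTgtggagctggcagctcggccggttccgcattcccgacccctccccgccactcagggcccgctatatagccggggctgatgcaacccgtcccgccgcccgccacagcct
Ggct (chr6:54992868-54993117, reverse strand): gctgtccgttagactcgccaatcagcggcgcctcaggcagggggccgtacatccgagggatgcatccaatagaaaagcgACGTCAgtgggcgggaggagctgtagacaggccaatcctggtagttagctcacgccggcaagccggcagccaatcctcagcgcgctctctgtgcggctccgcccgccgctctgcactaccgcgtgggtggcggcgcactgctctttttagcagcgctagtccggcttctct

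Ggct itself had normalised log2 signals of 3.32, 3.72 and 3.70 in control replicates 1 to 3 and 0.22, 0.91 and 0.70 in knockdown replicates 1 to 3. It was lower on every knockdown array, at 12.7% of control (limma adjusted p = 0.00314). The 75th percentile of the signal ran from 812 to 1373 intensity units over the arrays, 54.5% to 56.8% of probes were well above background and 0 probes were saturated. Knockdown replicate 1 stood apart, with a score of 46.6 on principal component 1 where the other knockdown arrays scored 9.13 and 15.4, so family values are also given without it. Of 10 neural and glioma stem cell markers, 8 were well above background on all 6 arrays and Olig2 was on none. The summed linear signal of this list, in multiples of the array's 75th percentile, ran from 235 to 275 in control and from 219 to 271 in knockdown arrays. Most of it was Vim (194 in control, 206 in knockdown), so the sum says little about the other markers. Among those tested, Nes had the lowest log2 fold change (-0.64) and Prom1 the highest (1.03), and neither passed (limma adjusted p = 0.126 and 0.105). Of 9 microglial markers, Aif1, Cx3cr1, P2ry12 and Ptprc were on no array above background and 4 were on all 6, with sums of 12.2 to 18.5 in control and 13.2 to 15.6 in knockdown. Most of that sum was Itgam (12.4 in control, 10.9 in knockdown), and Tmem119 was called higher (log2 fold change 1.17, limma adjusted p = 0.0207). Sums were 92.6 to 107 against 96.4 to 125 for 6 fibroblast and mural markers, of which 4 were above background on all arrays and Lum on none. Most of these sums was Col3a1 (78.8 in control, 88.2 in knockdown). For 6 neuronal markers the sums were 8.47 to 12.9 against 7.39 to 9.70, with 3 above background on all arrays and Rbfox3 and Stmn2 on none. Most of the neuronal sum was Snap25 (8.32 in control, 6.91 in knockdown). The endothelial sum was lower in the knockdown (3.36 to 4.55 against 7.003 to 8.68), and nearly all of it was Flt1 (7.79 in control, 3.92 in knockdown), with 3 of its 6 markers above background on all arrays and Cldn5 and Kdr on none. The oligodendrocyte sum was higher (2.52 to 2.74 against 1.86 to 1.99), mostly through Cnp, with 4 of its 6 markers above background on all arrays. Cnp and Mbp were called higher (log2 fold change 0.48 and 1.01, limma adjusted p = 0.0398 and 0.0247). The part of these marker shifts in the AP-1 values was not tested.

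The family leaned towards lower values in the knockdown, and 1 member, Jdp2, passed the test. Of the 10 genes, 0 rose and 1 fell at a limma adjusted p below 0.05, where 7.41% of all genes tested were called, 2.84% lower and 4.57% higher. 9 of the 10 had a log2 fold change below 0, as did 47.7% of all genes. The signs of Junb, Jund and Fos, counted among the 9, turned in some of the alternative settings. With each gene read as the mean of its tested probes the count was 8. In 5 members, Fosb, Fosl1, Fosl2, Jdp2 and Atf3, every knockdown array lay below every control array, a pattern shown by 14.6% of all genes; the reverse pattern was shown by 0 members and 17.8% of all genes. The same 5 had an unadjusted limma p below 0.05, against 10.7% of all genes lower at that level, and 0 members but 14.1% of all genes were higher. The median log2 fold change of the 10 was -0.40, against 0.016 over all genes, and -0.32 without knockdown replicate 1. By date pair the family median was -0.65, -0.35 and -0.20, beside 0.093, 0.0034 and -0.025 for all genes. The family was picked with earlier results of these arrays in view, so these counts describe it and are no independent evidence of its direction. In RNA from whole cultures, fewer cells that express a gene and less RNA per cell cannot be told apart.

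**Figure D1:**
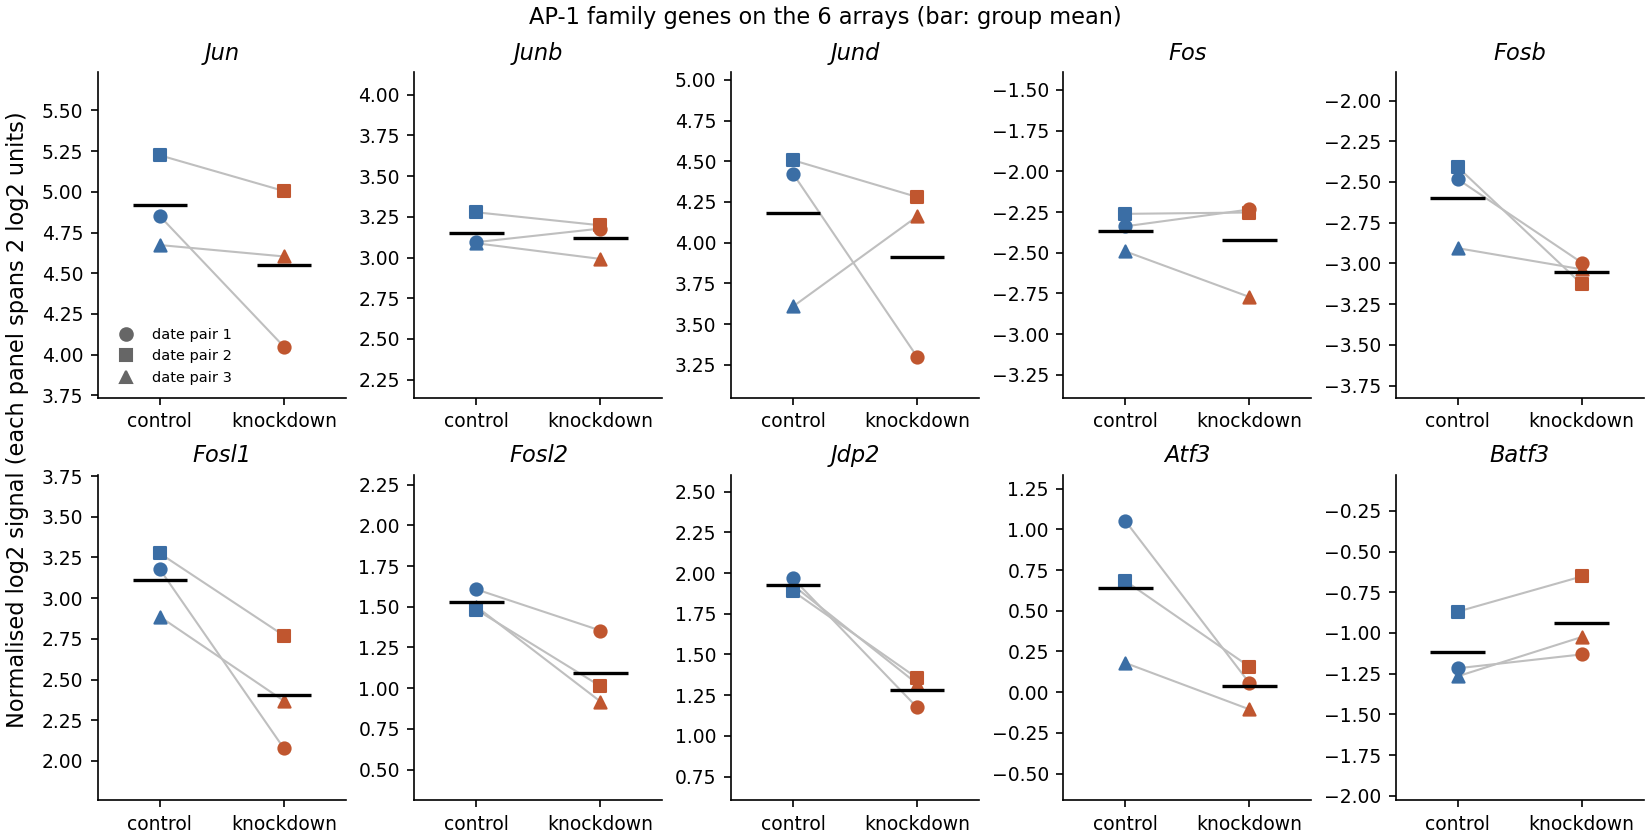
Normalised log2 signal (log2 processed signal minus the array's 75th percentile) of the brightest probe of each AP-1 gene on 3 control and 3 knockdown arrays. Lines join arrays of the same date, symbols mark the date pair, black bars are group means, and each panel spans 2 log2 units. Control and knockdown points of Fosb, Fosl1, Fosl2, Jdp2 and Atf3 do not overlap, whereas those of Jun, Junb, Jund, Fos and Batf3 do.

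The Jun proteins are the members that can dimerise with one another as well as with Fos proteins. Jun, which encodes c-Jun, the strongest activator among them, had normalised log2 signals of 4.85, 5.22 and 4.67 in control replicates 1 to 3 and 4.05, 5.01 and 4.60 in knockdown replicates 1 to 3. Knockdown replicate 1 was the lowest of the 6 and the groups overlapped, although each knockdown array lay below the control of its date. The log2 fold change of Jun was -0.36 ± 0.26 (SE, n = 3 per group; limma adjusted p = 0.433), and its 95% interval ran from -0.96 to 0.23, which allows the knockdown to lie between 51.5% and 117% of control. Its date pairs differed by -0.80, -0.22 and -0.070, and without knockdown replicate 1 the log2 fold change was -0.11 (limma adjusted p = 0.782). The difference of Jun thus rested for the most part on the date pair that holds this array.

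Junb, whose product shares partners with c-Jun and is a weaker activator, had signals of 3.09, 3.28 and 3.09 in control and 3.18, 3.20 and 2.99 in knockdown arrays. Both groups covered the same narrow range. Its log2 fold change was -0.031 ± 0.12 (SE, n = 3 per group; limma adjusted p = 0.914), and the 95% interval ran from -0.32 to 0.26, or 80.3% to 119% of control. A second, much dimmer probe of the same Junb transcript was above background on all arrays, by as little as 0.41 log2 units over the dimmest spots so marked, and had a log2 fold change of 0.14 ± 0.32 (SE). Its date pairs differed by -0.56, 0.35 and 0.63, a wider scatter than the 0.084, -0.080 and -0.096 of the bright probe.

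Jund, the most constantly expressed Jun gene in many tissues, was read by 2 bright probes, each annotated to a different RefSeq transcript. Probe sequences were not examined, so whether the probes tell the transcripts apart is not known. Their log2 fold changes were close, but their scatter over the arrays differed. The probe used for the gene (NM_001286944) had signals of 4.42, 4.51 and 3.61 in control and 3.30, 4.28 and 4.16 in knockdown arrays. Its date pairs differed by -1.12, -0.23 and 0.55, so the sign turned between dates and the groups overlapped. The log2 fold change was -0.27 ± 0.32 (SE, n = 3 per group; limma adjusted p = 0.671), and it was 0.041 without knockdown replicate 1. The other probe (NM_010592) had date-pair differences of -0.30, -0.055 and -0.56, with control and knockdown arrays that did not overlap, and its control SD was 0.077 against 0.50 for the first probe. With every probe as its own feature, its log2 fold change was -0.30 ± 0.14 (SE; adjusted p = 0.304, limma over 31804 probes). Neither Jund probe passed. With normexp background correction, where the brightest probe was chosen anew, Jund was at -0.28 ± 0.13 (SE; limma adjusted p = 0.249).

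The Fos proteins need a Jun partner to bind DNA as AP-1. Fos, the classic immediate early gene, was dim, its dimmest array 2.49 log2 units over the lowest signal flagged as well above background, and had signals of -2.34, -2.26 and -2.49 in control and -2.23, -2.25 and -2.77 in knockdown arrays. Knockdown replicate 3 was the lowest array and knockdown replicate 1 the highest, so the groups overlapped fully. Its log2 fold change was -0.056 ± 0.17 (SE, n = 3 per group; limma adjusted p = 0.886; 95% interval from -0.46 to 0.34). The interval allows Fos to lie anywhere from 72.9% to 127% of control.

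Fosb, a Fos gene with a long and a truncated protein form, had signals of -2.48, -2.41 and -2.91 in control and -3.00, -3.13 and -3.04 in knockdown arrays. The 3 knockdown arrays lay together, just under control replicate 3. The log2 fold change of Fosb was -0.45 ± 0.16 (SE, n = 3 per group; limma adjusted p = 0.122), and its date pairs differed by -0.51, -0.72 and -0.13. With normexp background correction it was -0.28. A second Fosb probe was on no array above background, so it gives no fold.

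Fosl1 encodes Fra-1, a Fos protein without the strong activation domain of c-Fos that is linked to mesenchymal and invasive glioma cells. Its signals were 3.18, 3.27 and 2.89 in control and 2.08, 2.77 and 2.37 in knockdown arrays. Every knockdown array was below every control array, and knockdown replicate 1 was again the lowest. The log2 fold change of -0.71 ± 0.20 (SE, n = 3 per group), 61.3% of control, was the furthest from 0 in the family in size, yet Fosl1 did not pass (limma adjusted p = 0.0751, 95% interval from -1.17 to -0.25). Its date pairs differed by -1.10, -0.50 and -0.52. Without knockdown replicate 2 it passed (-0.89, limma adjusted p = 0.0464), and without knockdown replicate 1 it was -0.54 (limma adjusted p = 0.125).

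Fosl2, which encodes Fra-2, the close relative of Fra-1, had signals of 1.61, 1.48 and 1.50 in control and 1.35, 1.01 and 0.92 in knockdown arrays. The control arrays lay within a narrow range (SD 0.067, n = 3) above all knockdown arrays (SD 0.23, n = 3). Its log2 fold change was -0.44 ± 0.14 (SE; adjusted p = 0.113, limma), and the date pairs differed by -0.25, -0.47 and -0.58. Unlike Jun and Fosl1, Fosl2 had its smallest difference in date pair 1, and without knockdown replicate 1 it passed at -0.56 (limma adjusted p = 0.0422). A second Fosl2 probe was above background on 1 array of each group and did not enter the tests.

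Jdp2 was the member that fell. Its product, Jun dimerisation protein 2, pairs with Jun proteins and with ATF2 and represses AP-1 and CRE sites. Its signals were 1.97, 1.89 and 1.93 in control and 1.18, 1.36 and 1.32 in knockdown arrays. Both groups were tight (SD 0.039 and 0.096, n = 3 each) and well apart. Jdp2 was 64.0% of control, or -0.64 ± 0.11 as a log2 fold change (SE; adjusted p = 0.0215, limma), and the 95% interval ran from 53.4% to 76.8% of control. The date pairs differed by -0.79, -0.53 and -0.60, and Jdp2 and Fosl1 were the members lower by at least 0.5 log2 units in all 3 pairs, as were 2.11% of all genes. The size of the fall was much the same in each setting tried, from -0.70 to -0.57, while its adjusted p moved across the threshold. Jdp2 did not pass with the date pair as a replicate block (limma adjusted p = 0.0602), where 1.16% of all genes were called lower and 2.78% higher, or with every probe as its own feature (limma adjusted p = 0.0539), where 1.75% of probes were called and 0.591% were called lower. It also missed the threshold without a filter on dim probes (limma adjusted p = 0.0656), without any 1 of the 3 control replicates (0.0550 to 0.0873), without knockdown replicate 3 (0.0740) and without any 1 of the date pairs (0.0928 to 0.183). It passed without knockdown replicate 1 (0.0354) or 2 (0.0489). The array has 1 Jdp2 probe, on transcript NM_030887, and which of the 3 starts that transcript uses was not examined.

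Atf3 and Batf3 encode small bZIP proteins that pair with Jun proteins. Atf3, a stress-induced repressor or activator depending on its partner, had signals of 1.05, 0.68 and 0.18 in control and 0.056, 0.16 and -0.11 in knockdown arrays. The groups did not overlap, but control replicate 3 was above the highest knockdown array by a narrow margin, and the control arrays were spread widely (SD 0.44, n = 3, against 0.13). The log2 fold change of Atf3 was -0.60 ± 0.22 (SE; adjusted p = 0.138, limma), 65.9% of control, with date pairs at -0.99, -0.53 and -0.28. Without control replicate 3 it was -0.83 (limma adjusted p = 0.0538), and without control replicate 1 it was -0.40.

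Batf3, known best as a factor of cross-presenting dendritic cells, was the 1 member with a value above 0. Its signals were -1.22, -0.87 and -1.27 in control and -1.13, -0.65 and -1.02 in knockdown arrays. The second date was the highest in both groups, and each knockdown array was above the control of its date while the groups as a whole overlapped. Its log2 fold change was 0.18 ± 0.17 (SE, n = 3 per group; limma adjusted p = 0.579), with date pairs at 0.085, 0.22 and 0.24. Of all genes, 26.3% were higher in all 3 pairs and 22.4% lower in all 3, the latter a pattern that 6 members showed (the 5 without overlap and Jun).

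**Figure D2:**
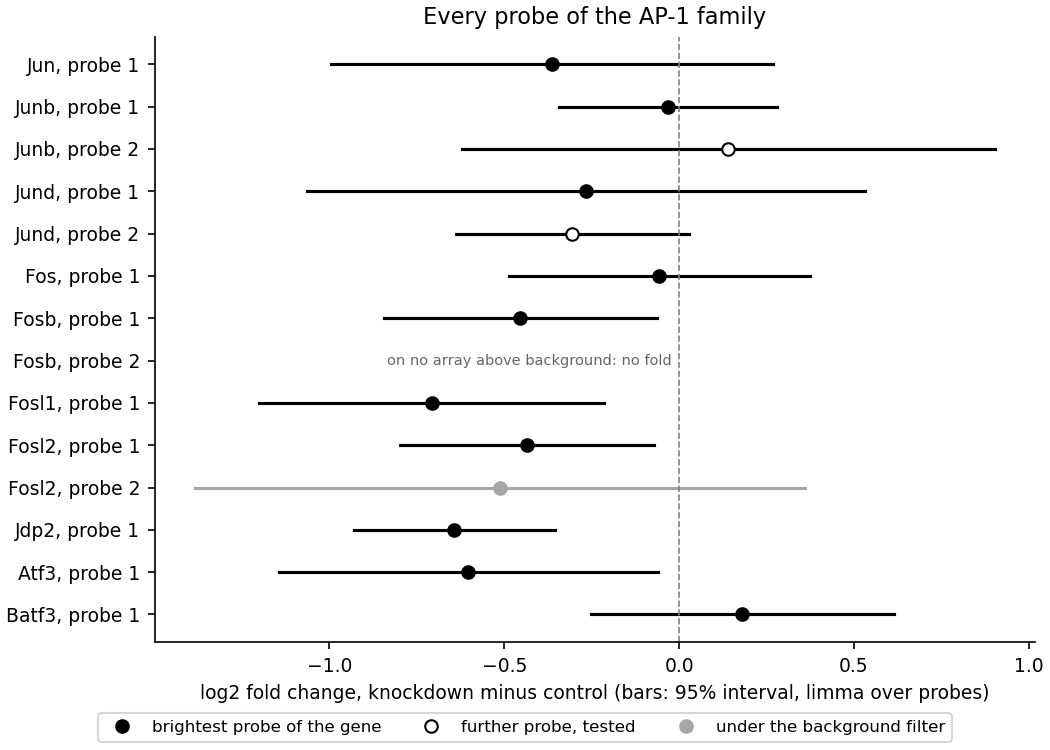
Log2 fold change (knockdown minus control) of each AP-1 probe, with 95% intervals from limma with probes as features. Filled points are the probe used for the gene, open points further tested probes, and the grey point a probe under the background filter, fitted without that filter. The Jdp2 interval is the furthest from 0 relative to its width, those of Fosb, Fosl1, Fosl2 and Atf3 also exclude 0 before adjustment, and the wide first Jund interval spans the second.

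The members did not share 1 profile over the dates. In Jun, Jund (first probe), Fosl1, Jdp2 and Atf3 the date pair 1 difference was the most negative. In Fosb it was pair 2, and in Fosl2, Fos and Junb it was pair 3, while Batf3 was above 0 in each pair. The 3 genes nearest to Jun among 12466 genes, by the root mean square difference of centred log2 values over the 6 arrays, were Gfra1, a receptor subunit for GDNF (0.084), Troap (0.086) and Scarna13 (0.093). Like Jun they did not pass, with log2 fold changes of -0.38, -0.33 and -0.33. Those nearest to Jdp2 were Vti1a, a SNARE gene of vesicle traffic (0.049), the channel gene Panx1 (0.052) and Stc2, which encodes a secreted glycoprotein of stress responses (0.054). Their log2 fold changes were -0.60, -0.66 and -0.72, all past the threshold (limma adjusted p = 0.0311, 0.0187 and 0.0155). Vti1a was at -0.23 as the mean of its probes (limma adjusted p = 0.280), missed the threshold with the replicate block (0.0670) and passed in 7 of 18 settings. Panx1 missed it without a filter on dim probes (0.0590) and passed in 10, and Stc2 passed in 12. With single arrays left out, all 3 missed it without control replicate 1, control replicate 2 or knockdown replicate 3, Vti1a and Panx1 also without control replicate 3, and Vti1a also without knockdown replicate 2. Such neighbours are found by search over many genes and 6 points, and nothing about shared control is read from them.

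**Figure D3:**
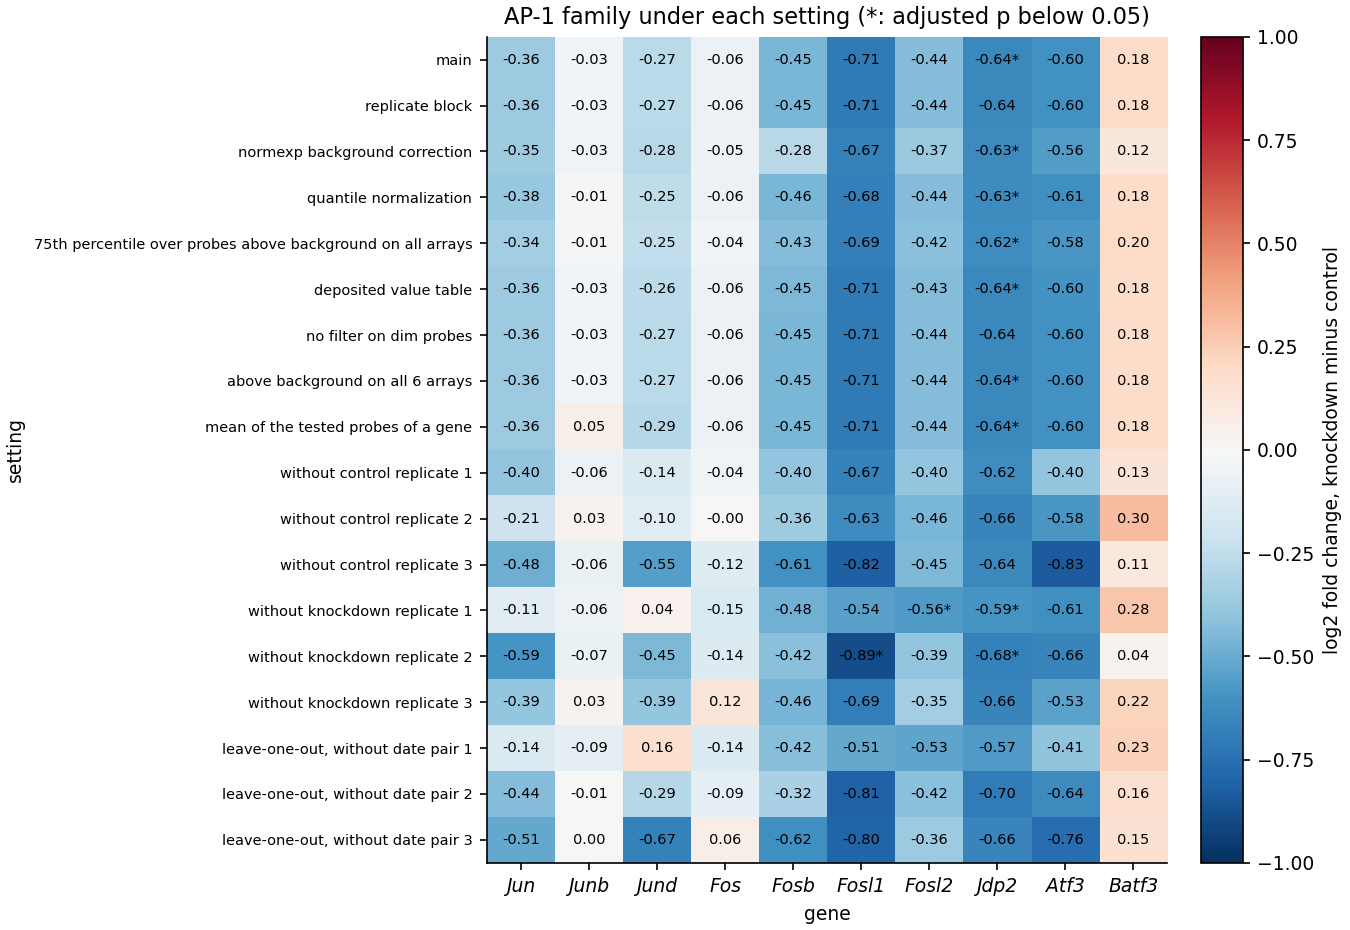
Log2 fold change (knockdown minus control) of each AP-1 gene in the main fit and under 17 alternatives, with colour from blue (lower) to red (higher) and an asterisk where the limma adjusted p was below 0.05. Jun, Fosb, Fosl1, Fosl2, Jdp2 and Atf3 are below 0 in every row, and the asterisks lie in the Jdp2 column apart from 1 each for Fosl1 and Fosl2.

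A list of 20 other bZIP genes that can join AP-1 members or compete for their sites was read in the same way. Like the lists that follow, it was chosen with earlier results of these arrays known, so its counts are descriptions. Of 15 tested, 1 was called higher and 1 fell (6.67% each, against 4.57% and 2.84% of all genes), with a median log2 fold change of 0.15 against 0.016 over all genes. The fall was Mafk, a small Maf protein without an activation domain, at -0.49 ± 0.11 (SE; adjusted p = 0.0463 in limma, against 0.0955 with the replicate block). The higher call was Batf2, an interferon-inducible relative of Batf3, which was well above background on all 3 knockdown and 0 control arrays and was at least 2.40-fold higher (limma adjusted p = 0.0149). Since it met the filter through its knockdown arrays alone, its call supports nothing about the list, and among genes above background on all 6 arrays 0 of 14 were called higher in limma. That bound sets each control array to the higher of its own value and the lowest signal well above background. With normexp, the log2 fold change of Batf2 was 0.30 and it did not pass. Mafk missed the threshold whichever array was left out, and Batf2 missed it without control replicate 1, control replicate 2 or knockdown replicate 3. The other 5 genes of the list did not meet the background filter and were not tested.

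Among genes that feed signals to AP-1, single kinases differed. Of 19 tested genes of the JNK pathway, whose kinases phosphorylate c-Jun, 2 rose and 1 fell (10.5% and 5.26%, against 4.57% and 2.84% of all genes), with a median of 0.12. Mapk10, which encodes the neural kinase JNK3, had signals of -0.53, -0.83 and -0.57 in control and 1.73, 0.81 and 1.27 in knockdown arrays. The groups lay far apart, and Mapk10 was 3.77-fold higher (log2 fold change 1.91 ± 0.23, SE; limma adjusted p = 0.011), with a second probe at 1.66. Mapk8ip1, which encodes the JNK scaffold JIP1, rose 1.58-fold (adjusted p = 0.0231 in limma, against 0.0607 with the replicate block). Map3k7, which encodes the kinase TAK1, fell to 52.8% of control (limma adjusted p = 0.0308), although its other 2 tested probes were at -0.43 and -0.31 and it did not pass as the mean of its probes. Of 21 ERK, p38 and SRF genes, which drive transcription of Fos, 0 rose and 1 fell (4.76%, against 2.84% of all genes), with a median of -0.090. The fall was that of the ERK kinase kinase gene Map2k2 (-0.55 ± 0.13, SE; adjusted p = 0.0478 in limma, against 0.103 with the replicate block). Of 10 genes for degradation or modification of Jun and Fos proteins, such as the ubiquitin ligase genes Fbxw7 and Cop1, 0 passed in limma and the median was 0.014, with values from -0.25 to 0.29. With single arrays left out, Mapk10 ran from 1.68 to 2.14 and kept its call except without control replicate 1, control replicate 2 or knockdown replicate 3. Map3k7 lost its call in the same 3 cases and without control replicate 3, Mapk8ip1 in those 4 and without knockdown replicate 2, and Map2k2 whichever array was left out.

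Genes often cited as AP-1 targets included falls larger than those of the factors themselves. Of 31 tested in a list of 34, 7 fell (22.6%, against 2.84% of all genes) and 0 rose, with a median of -0.18. Most of the 7 were known to fall from an earlier description of these arrays when the list was drawn up, so the count is no evidence for a shared direction. Thbs1, encoding the matrix protein thrombospondin-1, had signals of 4.22, 4.20 and 4.14 in control and 2.24, 2.33 and 1.99 in knockdown arrays. The matricellular gene Ccn1 had 0.90, 0.79 and 1.01 in control and -0.997, -0.63 and -0.42 in knockdown arrays. Areg, encoding the EGF receptor ligand amphiregulin, had 1.57, 1.81 and 1.31 in control and -0.64, 0.38 and 0.20 in knockdown arrays. Hbegf, the gene of another EGF receptor ligand, was as clearly separated, and the 4 stood at 25.0%, 33.4%, 33.5% and 41.7% of control in the order named. These genes also answer to other pathways, such as YAP and TGF-beta, and no binding of AP-1 was measured. With the replicate block 8 fell, and without knockdown replicate 1 the count was 6. Leaving out control replicate 1 left 1, and leaving out control replicate 2, knockdown replicate 3 or date pair 2 left 2 each. Leaving out date pair 3 left 0 in limma, where 0 of all genes passed and 2796 had an unadjusted p below 0.05.

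Immediate early genes outside the family, which growth factors induce together with Fos, moved in part. Of 13 tested, 3 fell and 1 rose (23.1% and 7.69%, against 2.84% and 4.57% of all genes), and the median was -0.0098 against 0.016 over all genes. This list too was drawn up with earlier results of these arrays known, so the counts describe it and are no evidence for a shared direction. The zinc finger genes Egr3 and Egr1 were at 37.6% and 59.1% of control (limma adjusted p = 0.0139 and 0.0474), and the nuclear receptor gene Nr4a1 was at 60.2% (limma adjusted p = 0.0252). Fos itself, with its interval from 72.9% to 127% of control, was among the genes that did not pass. The rise was Btg2, an antiproliferative gene (2.41-fold; adjusted p = 0.0181 in limma, against 0.0547 with the replicate block). Without control replicate 1, without control replicate 2 or without knockdown replicate 3, 0 of the 13 passed in limma. Without a filter on dim probes 2 passed, 1 in each direction, and 0 or 1 passed with a date pair left out. Egr1 lost its call whichever array was left out, with quantile normalisation (limma adjusted p = 0.0599) and with the percentile over probes detected on every array (0.0521), and Nr4a1 lost its call also without control replicate 3.

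**Figure D4:**
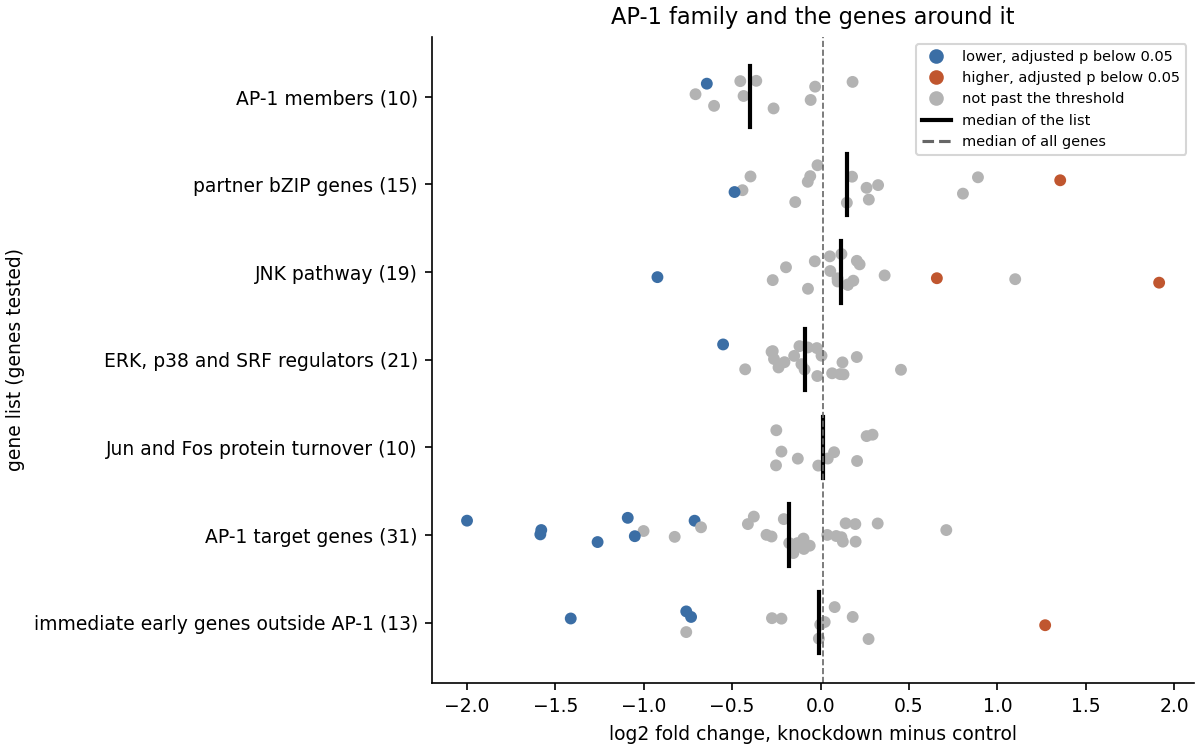
Log2 fold change (knockdown minus control) of every tested gene in the AP-1 family and in 6 lists around it, with the number tested in brackets. Black bars are list medians, the dashed line is the median of all genes (0.016), and colour marks genes with a limma adjusted p below 0.05. The family median lies at -0.40 with 1 blue point, Jdp2, while most points past the threshold lie outside the family.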

How the data were processed

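The authors scanned Cy3-labelled cRNA of 3 control and 3 knockdown samples on one-colour Agilent arrays, and the deposited scanner files give a background-corrected intensity per spot and flags for background and outlier spots, from Agilent Feature Extraction 11.0.1.1 according to their headers. The deposited value table holds log2 values, equal to the log2 processed signal less a constant for each array (9.05 to 9.75, within 0.01), with column medians from -4.46 to -4.21. Outlier spots were left out, the spots of a probe averaged, and log2 processed signal minus the array's 75th percentile was analysed. Accessions were matched without version to RefSeq of GRCm38, which named 32994 of 56605 probes, and 12 probes without usable spots were dropped. The filter kept probes flagged well above background on 3 or more arrays, and each gene was read by its brightest probe.

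The groups were compared with limma 3.58.1 (R 4.3.3; lmFit, eBayes, two-sided), with Benjamini-Hochberg adjustment over 14151 genes, or over 31804 probes where stated, and a threshold of 0.05. The fit was also run on simulated data with independent noise and no date effect, as a check of the code, and no result rests on that run. The dates pair the arrays; deviations of paired arrays from their group means correlated at -0.025, 0.55 and -0.20 across genes, and the pair served as a block in an alternative. All arrays share 1 scan day. Members, lists and the naming rule (all members, up to 4 called genes per list and direction or all where 5 or fewer passed, and the 3 genes nearest to Jun and to each called member) were chosen with earlier results of these data known. The normexp alternative used median spot signals, a choice made after seeing the files. Python 3.11.15, pandas 2.3.3 and matplotlib 3.10.9 were used. The number of arrays limits the precision.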

Additional observations from a re-analysis of the deposited data

How the results depend on the processing

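Jun, Fosb, Fosl1, Fosl2, Jdp2 and Atf3 stayed below 0 in all 17 alternatives, and Batf3 above 0. The count of family genes past the threshold was 0 with the replicate block and 0 without a filter on dim probes (Jdp2 limma adjusted p = 0.0602 and 0.0656), and it ran from 0 to 2 with single arrays or date pairs left out. With probes as features, 0 family probes passed, but 1 did with normexp and 1 among probes above background on all 6 arrays, Jdp2 in both. The median of the family ran from -0.56 to -0.28 with arrays or pairs left out. The signs of the small differences were not stable: Junb was at 0.055 as the mean of its probes and ran from -0.088 to 0.035 with arrays or pairs left out, Jund from -0.67 to 0.16, Fos from -0.15 to 0.12 and Notch1, the other gene of the series title, from -0.16 to 0.30. Over all genes, 1048 passed in the main fit, 558 with the replicate block and 357 without a filter, and 0 to 840 with arrays or pairs left out. Without date pair 3 the limma count was 0, with 2796 genes at an unadjusted p below 0.05. The share of calls that were higher was 61.6% in the main fit and 67.1% with the scaling percentile taken over probes detected on every array. Fos and Fosb lay within 2.49 and 2.17 log2 units of the lowest signal well above background on their dimmest array, which limits what their folds can show. Over all genes named outside the family, Ggct and the neighbours of Jun and Jdp2 included, calls were lost in 123 combinations of gene and alternative. The sign turned in 4, all of Notch1, and 246 combinations changed in neither way. The cause of these shifts was not tested.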
